A study of Mus musculus with 9 samples.

Results

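The enzymes of steroid hormone metabolism followed here numbered 10 and were measured in the liver of pair-fed, alcohol-fed and MNA-injected alcohol-fed mice. They were Hsd3b5, Hsd3b2, Hsd3b3, Hsd3b7, Cyp17a1, Hsd11b1, Hsd17b2, Srd5a1, Akr1d1 and Akr1c6. The members were taken by name from the gene table, which held 52151 entries, 26350 of them named and holding an annotated transcript. Of the 10 names, 8 had an entry of their own with a known transcript. The transcripts of Hsd3b2 lay inside the entry named Hsd3b3 and those of Srd5a1 inside an entry named Gm17108, so that these 2 members had no separate value. Hsd11b1 had a second row, which held only an assembled transcript of the opposite strand.

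The study asked how alcohol feeding changes hepatic RNA. The pair-fed group (PF, n = 3) received an isocaloric control liquid diet, and the alcohol-fed group (AF, n = 3) received the Lieber-DeCarli diet, for 5 weeks. The third group (AF with MNA, n = 3) received the Lieber-DeCarli diet together with intraperitoneal MNA at 50 mg/kg. The labels gave the age of all mice as 8 weeks and did not spell out MNA. The methods named male C57BL/6J mice, fasted before the livers were taken. The strain label was C57BL/6 for PF and AF, and it read C57BL/7, C57BL/8 and C57BL/9 for the 3 MNA libraries. Ribosome-depleted, strand-specific libraries were sequenced, and the values are FPKM, read levels scaled for transcript length and library size, which can be compared between genes. Nothing in the labels ties a library to a separate animal, so that p-values measure the spread between these libraries.

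The liver clears steroid hormones and activates some of them. HSD3B enzymes oxidize or reduce the hydroxyl or keto group on the first ring of the steroid, HSD17B and AKR1C enzymes interconvert active and weak sex steroids, and SRD5A and AKR1D enzymes reduce the double bond of that ring before the product is excreted. Hsd11b1 works in the other direction and regenerates active glucocorticoid inside the hepatocyte. Several of these genes are expressed at different levels in male and female mouse liver under the control of growth hormone.

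Total reads recovered from the circRNA table ranged from 57800660 to 82179248 over the 9 libraries, while the gene table gave no counts, so that the depth behind a single FPKM is unknown. Summed FPKM of intron transcripts was highest in AF replicate 3 (9433) and AF with MNA replicate 1 (8934), against 2477 to 4937 in the other 7 libraries, and values without these libraries are given where they bear on a result. Of 8 hepatocyte markers 7 had an entry, and their summed FPKM was 19646 to 25528 in PF, 17475 to 25135 in AF and 23239 to 25222 in AF with MNA. The summed sinusoidal endothelial markers (6 of 6 with an entry) were 24.02 to 28.46 in PF, 28.9 to 40.17 in AF and 34.37 to 39.21 in AF with MNA. The 6 cholangiocyte markers summed to 3.29 to 4.31, 4.86 to 9.12 and 3.37 to 6.33 FPKM in the same order. Thus both of these sums were higher in all AF than in all PF libraries. Most of the cholangiocyte sum was Spp1, with 2.09 to 2.97 FPKM in PF and 3.39 to 6.66 in AF. Krt19, Krt7, Epcam and Cldn4 overlapped between PF and AF, and Sox9 did not. The endothelial sums of PF and AF lay close, and Fcgr2b had a log2 FC of -0.04 while the other endothelial markers were above 0. A sum can thus rest on single genes, and the part of both sums in the results was not tested. Ranges overlapped for Kupffer cells and macrophages (32.99 to 38.68 in PF, 21.81 to 39.11 in AF, 30.21 to 40.92 in AF with MNA), stellate cells (29.68 to 31.07, 26.28 to 36.67, 27.65 to 39.77) and lymphocytes (0.91 to 1.71, 0.93 to 1.63, 1.48 to 1.98). No marker of these 6 lists was at 0 in all libraries, and Marco, a macrophage scavenger receptor, was the only one past the threshold of the methods in AF against PF (log2 FC 1.25, limma adjusted p = 0.366).

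In PF liver the 8 measured enzymes covered a wide range of levels. Akr1c6, which reduces weak androgens and oestrogens to their active forms, stood far above the others at 283 ± 18.0 FPKM (mean ± SD, n = 3) and ranked 86 of 12251 entries with a mean of at least 0.5 FPKM in PF. It made up 72.1% to 73.3% of the summed FPKM of the 8 enzymes. Hsd11b1 (27.8 ± 4.93), Hsd3b7 (25.0 ± 4.83), Hsd17b2 (17.7 ± 4.02) and Hsd3b5 (17.3 ± 9.00) followed, and each overlapped with the next in this order. Akr1d1 (6.91 ± 0.064), Hsd3b3 (6.57 ± 0.180) and Cyp17a1 (5.05 ± 2.88) had the lowest levels, Cyp17a1 overlapping with Hsd3b3. In AF the order of the first 3 was kept, while Hsd3b5 came last and Cyp17a1 stood next after Hsd3b7. The order in AF with MNA was the same as in AF, and Cyp17a1 overlapped there with both of its neighbours, Hsd3b7 and Hsd17b2.

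**Figure D1:**
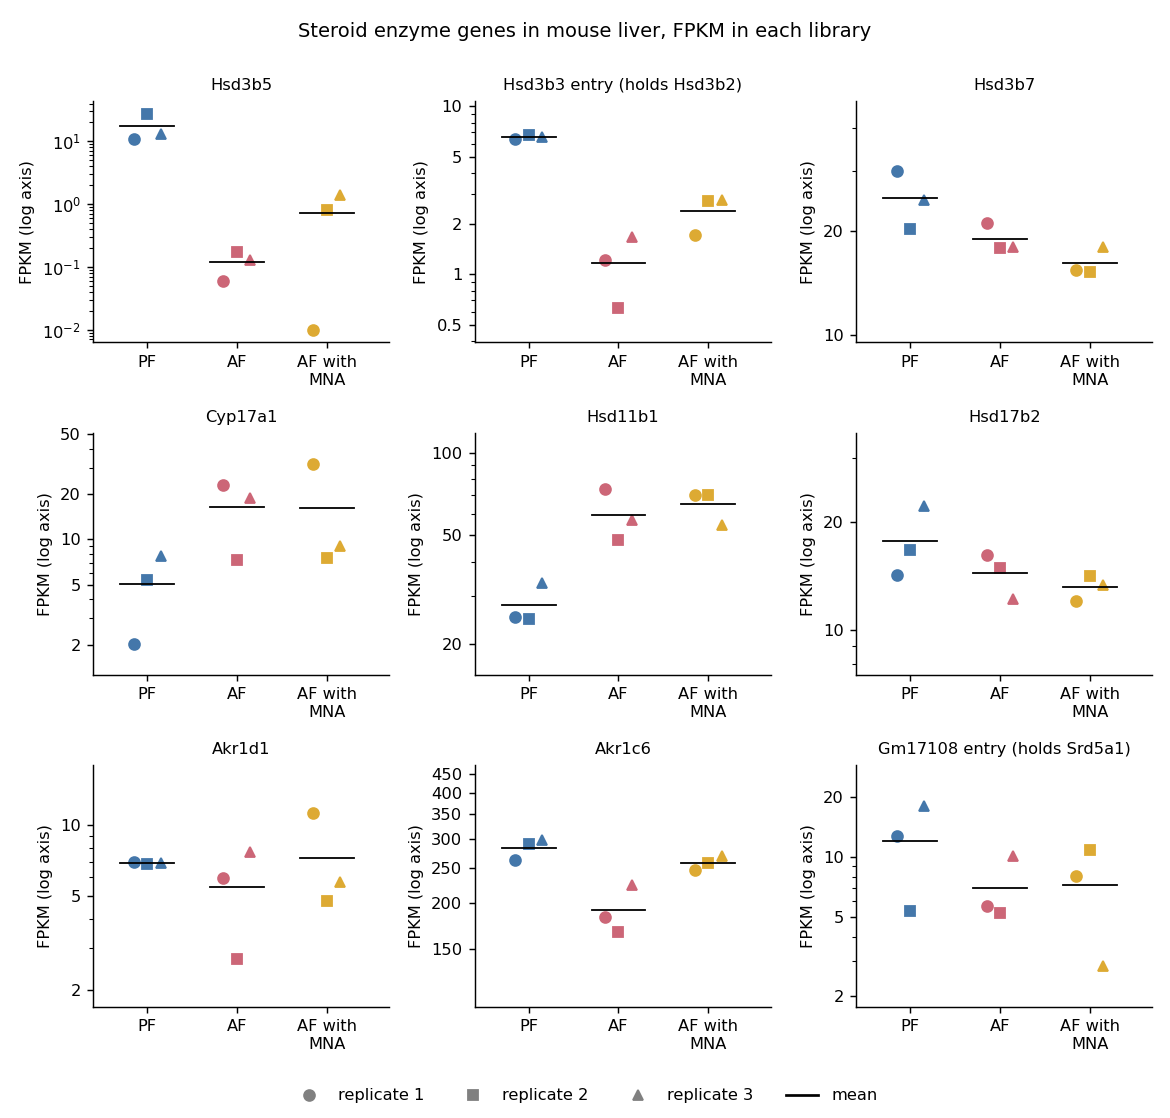
FPKM of the steroid enzymes in each of the 9 libraries, on log axes that differ between panels; symbols are replicates and black lines are the arithmetic means of 3 libraries. Hsd3b5 lay between 11.05 and 27.64 in PF and between 0.06 and 0.17 in AF, Hsd3b3 was lower in all AF libraries, and Hsd11b1 was higher in all AF libraries than in PF.

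AF against PF asked which enzymes change with alcohol feeding. Hsd3b5 and Hsd3b3 were downregulated after adjustment over 12273 genes, and Hsd11b1 and Cyp17a1 were upregulated by the threshold of the methods alone (unadjusted p below 0.05 and an absolute log2 FC above 1). Thus 4 of the 8 measured enzymes passed the threshold of the methods, 2 in each direction, where 4.29% of all tested genes did. With adjusted p under 0.05 there were 2 of 8, where 0.326% of all genes passed. The median log2 FC was -0.37 over the 8 enzymes and -0.03 over all genes tested. Hsd3b5 passed the filter of 0.5 FPKM only through its PF level, so that these counts are a description of the list. With 3 libraries a group, the exact permutation test of a single gene cannot go below p = 0.1. In whole liver, fewer cells of a type and less RNA per cell cannot be told apart.

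Hsd3b5 (chr3:98618634-98630252, minus strand, GRCm38), a reductase of ketosteroids that is found mainly in male mouse liver, had 11.05, 27.64 and 13.29 FPKM in PF. The AF libraries had 0.06, 0.17 and 0.13 FPKM. The groups lay far apart, with every AF library at 0.17 FPKM or less. The ratio of means was 144-fold lower in AF (log2 FC -7.17), and on the log2(FPKM + 1) scale the difference was -3.93 (SE 0.32, 95% interval -4.69 to -3.17, limma adjusted p = 0.00767). The file rounds to 2 decimals, which limits the precision of this ratio. The Hsd3b5 transcript shared 1.21% of its 150-base windows with Hsd3b4 and with Gm10681, and the Hsd3b4 entry itself was at 0.24 FPKM or less in every library.

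The Hsd3b3 entry held 23 transcripts, 5 of Hsd3b3 (chr3:98741523-98763127), 3 of Hsd3b2 (chr3:98709255-98724543) and 15 assembled ones. All 3 genes lie on the minus strand within 144.5 kb. Hsd3b2 and Hsd3b3 encode HSD3B dehydrogenases of liver and kidney, and their longest transcripts were 93.8% identical over 1523 aligned bases. The entry had 6.38, 6.74 and 6.58 FPKM in PF. The AF values were 1.22, 0.63 and 1.66 FPKM. All AF libraries were below all PF libraries, and the PF values were close together. The mean was 5.61-fold lower in AF (log2 FC -2.49), with a difference of -1.83 on the log2(FPKM + 1) scale (SE 0.19, 95% interval -2.29 to -1.37, limma adjusted p = 0.0214). How much of the decrease belongs to Hsd3b2 and how much to Hsd3b3 cannot be told apart from this entry. Leaving out 1 library at a time, the adjusted p of Hsd3b5 stayed under 0.05 in all 6 fits, whereas that of Hsd3b3 passed 0.05 without PF replicate 1, 2 or 3 and without AF replicate 1, at log2 FCs of -2.52 to -2.47. The adjusted call of Hsd3b3 was also lost with a pseudocount of 0.1, with no filter and with the replicate block, and those of both genes were lost with a library-size covariate.

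The start regions of these 3 neighbours are shown because the Hsd3b5 entry and the Hsd3b3 entry, which also holds Hsd3b2, both decreased. The sequences are RefSeq promoters (GRCm38.p6, minus strand, 250 bases before to 50 after the start), at chr3:98645485-98645784 for Hsd3b5, chr3:98724494-98724793 for Hsd3b2 and chr3:98763079-98763378 for Hsd3b3. The RefSeq start of Hsd3b5 lies 15.3 kb upstream of the GENCODE gene given above, so that its window, with the motif search and identities below, is not at the GENCODE start, whereas the windows of Hsd3b2 and Hsd3b3 lie within 1 base of theirs. Capitals mark the glucocorticoid receptor word (AGAACA) in Hsd3b2 and the reverse strand of an HNF4A word (CAAAGTCCA) in Hsd3b3.
Hsd3b5: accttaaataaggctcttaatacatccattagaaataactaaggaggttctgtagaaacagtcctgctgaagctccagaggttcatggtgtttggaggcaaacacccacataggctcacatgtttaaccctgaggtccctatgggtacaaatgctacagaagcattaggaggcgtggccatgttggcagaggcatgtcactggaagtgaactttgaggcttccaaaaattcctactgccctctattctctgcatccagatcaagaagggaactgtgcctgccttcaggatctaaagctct
Hsd3b2: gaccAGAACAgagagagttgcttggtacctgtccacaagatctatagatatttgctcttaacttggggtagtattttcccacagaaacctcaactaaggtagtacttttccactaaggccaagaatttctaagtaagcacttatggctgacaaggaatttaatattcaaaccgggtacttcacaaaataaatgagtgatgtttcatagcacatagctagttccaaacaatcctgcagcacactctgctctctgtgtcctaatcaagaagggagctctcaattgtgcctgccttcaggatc
Hsd3b3: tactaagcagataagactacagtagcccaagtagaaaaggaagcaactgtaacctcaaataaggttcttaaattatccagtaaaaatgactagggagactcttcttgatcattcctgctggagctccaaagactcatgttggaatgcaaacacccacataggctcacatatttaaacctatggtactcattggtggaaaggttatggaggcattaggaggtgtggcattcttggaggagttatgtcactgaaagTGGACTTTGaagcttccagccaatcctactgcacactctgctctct
The Hsd3b5 and Hsd3b3 regions were 76.3% identical over 249 aligned bases, whereas Hsd3b2 was 54.3% identical with Hsd3b5 and 57.2% with Hsd3b3.

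STAT5, HNF4A, glucocorticoid receptor and TATA words were searched on both strands of the promoters that were given, spelled TTCNNNGAA for STAT5, CAAAGTCCA for HNF4A, AGAACA for the glucocorticoid receptor and TATAAA for the TATA box. Of 32851 RefSeq promoters of the same length, 8.30% held the STAT5 word, 0.475% the HNF4A word, 19.0% the glucocorticoid receptor word and 13.6% the TATA box. Among 8 members with a promoter, Hsd3b2 held the glucocorticoid receptor word 246 bases before the start, and both Hsd3b3 starts held the HNF4A word, 3 or 4 bases after the start. Hsd3b7 held a STAT5 word (TTCCTGGAA) 21 bases before its start, and Akr1c6 a TATA box 164 bases before its start. None of the 4 words was in the windows of Hsd3b5, Hsd11b1, Akr1d1 and Srd5a1, and the Hsd11b1 window also lies away from the GENCODE start, inside the gene. These matches are a description of the letters only, and Cyp17a1 and Hsd17b2 are named only.

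Hsd11b1 (chr1:193221634-193264075, minus strand), which turns the inert keto form of glucocorticoid back into the active hormone, had 25.16, 24.81 and 33.51 FPKM in PF. The AF libraries had 73.99, 48.00 and 56.71 FPKM, and no AF library overlapped with PF. The mean was 2.14-fold higher (log2 FC 1.10, limma adjusted p = 0.125). On the log2(FPKM + 1) scale the difference was 1.06 (SE 0.21, 95% interval 0.56 to 1.56). Without AF replicate 1 the log2 FC was 0.91 and no longer above 1.

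Cyp17a1 (chr19:46667165-46673172, minus strand), the hydroxylase and lyase that opens the way from progestins to androgens, had 2.02, 5.38 and 7.75 FPKM in PF. In AF it had 22.93, 7.24 and 18.85 FPKM. AF replicates 1 and 3 were above all PF libraries, and AF replicate 2 lay below the highest PF library, so that the groups overlapped. The mean was 3.24-fold higher (log2 FC 1.69, limma adjusted p = 0.360), with a difference of 1.51 on the log2(FPKM + 1) scale (SE 0.52, 95% interval 0.26 to 2.77). The unadjusted p was 0.0709 without PF replicate 1, 0.0830 without AF replicate 1 and 0.0793 without AF replicate 3, so that the call rested on single libraries.

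Akr1c6 (chr13:4434306-4457877, plus strand) had 263.00, 289.98 and 297.04 FPKM in PF. The AF values were 183.70, 167.51 and 224.73 FPKM. All AF libraries were below PF, and the mean was 1.48-fold lower (log2 FC -0.56), which is under the fold threshold of the methods (limma adjusted p = 0.293). The difference was -0.57 on the log2(FPKM + 1) scale (95% interval -0.96 to -0.17). The share of Akr1c6 in the summed FPKM of the 8 enzymes was 56.5% to 66.1% in AF. With Hsd3b5, Hsd3b3 and Hsd11b1, 4 of the 8 enzymes had no overlap between AF and PF, where 18.3% of all genes tested had none. This count too is a description of the list.

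The other 3 measured enzymes did not pass the threshold in AF against PF. Hsd3b7 (chr7:127800604-127803802), the bile acid pathway member of the HSD3B family, had 29.97, 20.32 and 24.71 FPKM in PF and 21.09, 17.82 and 17.95 in AF (log2 FC -0.40, 95% interval of the difference on the log2(FPKM + 1) scale -0.78 to 0.04). Its entry of 24 transcripts held 13 of Hsd3b7, 5 of Setd1a, 2 of Gm49388 and 4 assembled ones, so that its value is not of Hsd3b7 alone. Hsd17b2 (chr8:117701904-117759027), which inactivates oestradiol and testosterone, had 14.23, 16.66 and 22.08 FPKM in PF and 16.14, 14.82 and 12.17 in AF (log2 FC -0.30, interval -0.73 to 0.20). Akr1d1 (chr6:37530173-37568815), the reductase that bends the ring junction of steroids and bile acid precursors, had 6.96, 6.84 and 6.94 FPKM in PF and 5.94, 2.72 and 7.70 in AF (log2 FC -0.34, interval -1.11 to 0.35). These 3 genes overlapped between the groups, and the intervals of Hsd17b2 and Akr1d1 leave changes in either direction. The Gm17108 entry, which holds 2 transcripts of Srd5a1 (chr13:69573449-69611442), the reductase of androgens and other ketosteroids, had 12.85, 5.37 and 18.20 FPKM in PF. It had 5.67, 5.28 and 10.21 FPKM in AF (log2 FC -0.78, interval -1.66 to 0.43), which overlapped.

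**Figure D2:**
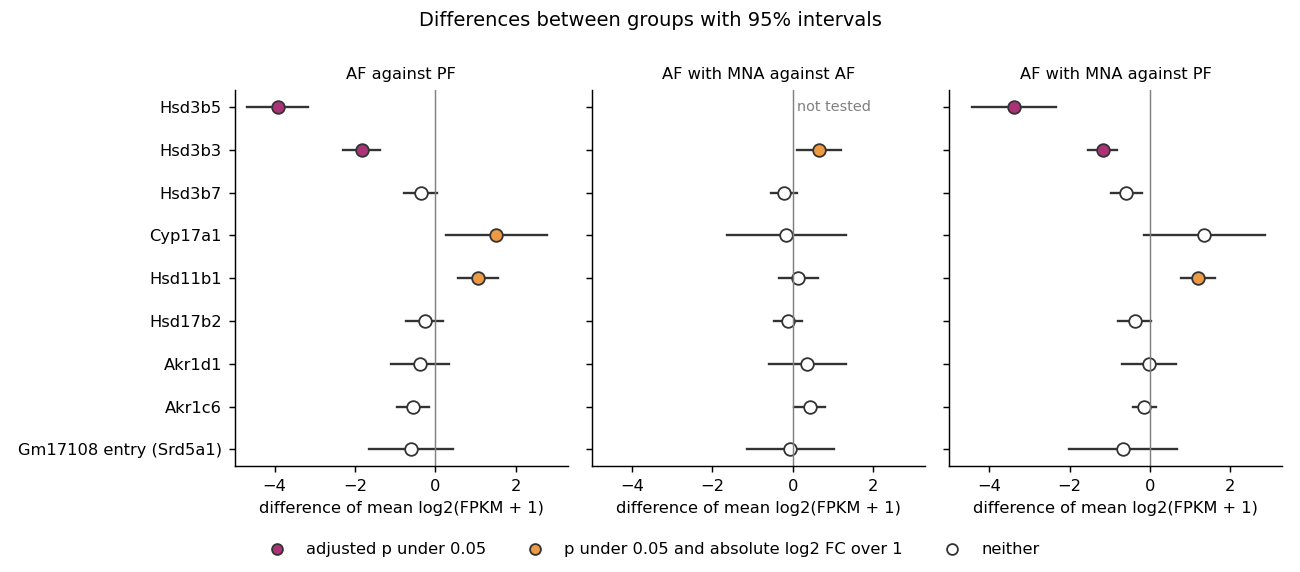
Differences of mean log2(FPKM + 1) for each enzyme in the 3 comparisons; points are estimates, horizontal lines are 95% intervals from limma, and colours give the threshold passed. Hsd3b5 and Hsd3b3 had adjusted p under 0.05 in both comparisons with PF, and against AF the Hsd3b3 entry alone passed the threshold of the methods.

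AF with MNA against AF asked whether MNA changes the enzymes in alcohol-fed liver. It shares its AF libraries with AF against PF, so that a high or low value in AF moves both comparisons in opposite directions. The Hsd3b3 entry was the only one of 7 tested enzymes past the threshold of the methods, where 1.98% of genes passed, and none had a limma adjusted p under 0.05, where 0.0491% did. An unadjusted p under 0.05 was found for 2 of 7, where 5.21% of genes had one. The Hsd3b3 entry had 1.71, 2.72 and 2.76 FPKM in AF with MNA, above all AF libraries. The mean was 2.05-fold higher than in AF (log2 FC 1.03, limma adjusted p = 0.940), and still below every PF library. The call of Hsd3b3 was lost without AF replicate 2 (log2 FC 0.73) and without AF with MNA replicate 2 (0.93) or 3 (0.92), as well as with the coefficient as fold change (0.66) and with a library-size covariate. Hsd3b5 was not tested because its mean was under 0.5 FPKM. Its values in AF with MNA were 0.01, 0.80 and 1.38 FPKM, so that replicate 1 lay below and the other 2 above all AF libraries (exact permutation p = 0.4, two-sided). Without AF with MNA replicate 1, the log2 FC of Hsd3b5 was 3.18, and with all libraries it was 2.60. Hsd3b5 reaches the filter only when that low library is left out, through the other 2 MNA libraries, so that the first value is a description and no test.

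Akr1c6 had 245.64, 257.57 and 268.61 FPKM in AF with MNA, all above AF, with a log2 FC of 0.42 (limma adjusted p = 0.940) that is under the fold threshold. Thus 2 of 7 enzymes, Hsd3b3 and Akr1c6, did not overlap between AF with MNA and AF, where 10.1% of all genes did not. Hsd11b1 stayed in the range of AF with 70.46, 70.21 and 54.48 FPKM (log2 FC 0.13, interval of the difference -0.35 to 0.62). Cyp17a1 had 31.85, 7.52 and 8.98 FPKM, a high replicate 1 beside 2 low ones (log2 FC -0.02, and -0.99 without AF with MNA replicate 1). Akr1d1 was also highest in replicate 1, with 11.23 FPKM against 4.78 and 5.74. Hsd3b7 (15.46, 15.18 and 17.95), Hsd17b2 (11.99, 14.10 and 13.32) and the Gm17108 entry (8.06, 10.91 and 2.84 FPKM) overlapped with AF, with log2 FCs of -0.23, -0.13 and 0.04. Apart from Akr1c6 and Hsd3b3, the smallest unadjusted p was 0.153, for Hsd3b7 by limma. Without both AF replicate 3 and AF with MNA replicate 1, the libraries with the most intron transcript FPKM and a setting chosen after seeing the data, the log2 FC of Hsd3b3 was 1.57 and passed the threshold.

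AF with MNA against PF shares its PF libraries with the first comparison, so that the values stand side by side here without a comparison of the lists. Hsd3b5 and Hsd3b3 were downregulated with log2 FCs of -4.57 and -1.45 (limma adjusted p = 0.0481 for both), and Hsd11b1 was upregulated by the threshold of the methods (log2 FC 1.23, limma adjusted p = 0.0721). These were 3 of 8 enzymes past the threshold, where 3.88% of genes passed, and 2 of 8 with adjusted p under 0.05, where 0.423% did. Here too Hsd3b5 passed the filter only through its PF level, so that the counts of this comparison are a description of the list. The 2 adjusted calls lay just under 0.05. That of Hsd3b5 was lost in all 6 fits that left out 1 library, and that of Hsd3b3 in all but the fit without AF with MNA replicate 1, while the threshold of the methods still held for both genes. Cyp17a1 had a log2 FC of 1.67 that did not pass the threshold, and 0.71 without AF with MNA replicate 1, while it passed without AF with MNA replicate 2 (2.02) and with a library-size covariate. Hsd3b7 was below PF in all 3 libraries (log2 FC -0.63, limma adjusted p = 0.227), as was Hsd17b2 (log2 FC -0.43). With these, 5 of 8 enzymes had no overlap with PF, where 21.4% of all genes tested had none. Akr1c6 and Akr1d1 overlapped with PF, with log2 FCs of -0.14 and 0.07.

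Relatives and partner enzymes were described list by list. Of 13 HSD3B and AKR1C relatives 5 could be tested, and none passed the threshold in AF against PF, where 4.29% of all genes did. All 5 were AKR1C genes and had a log2 FC below 0 (median -0.32), where 46.3% of all genes were above 0. An unadjusted limma p under 0.05 was seen for 3 of them, where 11.7% of all genes had one. Akr1c14 (40.8 to 28.5 FPKM, PF to AF means) and Akr1c12 (32.4 to 26.0), ketosteroid reductases of the same cluster as Akr1c6, had the highest levels. Hsd3b4 and Hsd3b6 were below 0.5 FPKM in all libraries and the other HSD3B relatives had no entry, so that no HSD3B relative was tested. Of 14 other HSD17B, HSD11B and SRD5A enzymes 8 were tested and none passed in AF against PF, AF with MNA against AF or AF with MNA against PF, where 4.29%, 1.98% and 3.88% of all genes passed. Hsd17b4, of peroxisomal fatty acid oxidation, went from a mean of 90.7 to 72.3 FPKM and Hsd17b10, a mitochondrial dehydrogenase, from 51.4 to 38.3 (log2 FC -0.33 and -0.42). Hsd17b10 alone of the 8 had an unadjusted limma p under 0.05 in AF against PF, where 11.7% of all genes had one, with an adjusted p of 0.269.

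Of 7 genes of cofactor supply for steroid enzymes in general 6 were tested. Fdx1, the ferredoxin that donates electrons to mitochondrial P450 enzymes, was the only one past the threshold in AF against PF, where 4.29% of all genes passed. It had 5.01, 4.34 and 3.81 FPKM in PF and 1.83, 1.71 and 1.95 in AF, without overlap (log2 FC -1.26, limma adjusted p = 0.0652). With MNA it had 2.38, 2.81 and 2.06 FPKM, between the other groups. Por, of the same list, went the other way, with 68.10 to 117.11 FPKM in PF and 120.68 to 191.16 in AF. Its groups did not overlap, and its log2 FC of 0.83 was under the fold threshold (limma adjusted p = 0.325). Of 10 genes of adrenal and gonadal steroid synthesis 3 had an entry, and the others had no value. Of these 3, only Star reached 0.5 FPKM when PF and AF were averaged together (0.90 in PF and 0.95 in AF). Cyp21a1, of adrenal corticoid synthesis, had 0.39 to 0.99 FPKM in PF and 0.11 to 0.26 in AF, and Cyp11a1, the first step of hormone synthesis from cholesterol, was at 0.01 FPKM or 0 in all libraries. Of 8 receptors and carriers 5 were tested and none passed in AF against PF, where 4.29% of all genes did, and 1, Esr1, had an unadjusted limma p under 0.05, where 11.7% did. The corticosteroid carrier Serpina6 had means of 73.8 FPKM in PF and 107 in AF, and the glucocorticoid receptor Nr3c1 8.13 and 7.00 FPKM, and both overlapped between the groups.

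Glucocorticoid receptor targets were listed beside Hsd11b1, which makes the ligand of that receptor. All 10 had a higher mean in AF than in PF, where 46.3% of all genes did, and 3 were upregulated by the threshold of the methods, where 1.95% of all genes were, but not after adjustment. Tat, a tyrosine aminotransferase, had 114.89, 241.26 and 136.59 FPKM in PF and 386.93, 581.14 and 197.15 in AF (log2 FC 1.24, limma adjusted p = 0.393). Sgk1, a kinase, had a log2 FC of 1.13 and Sds, a serine dehydratase, of 1.10, both without overlap (adjusted p = 0.252 and 0.307). In AF with MNA against AF, which shares the AF libraries and so is no independent measure of direction, the means of all 10 were lower, with a median log2 FC of -0.66 (0.01 over all genes, 51.1% of which were above 0), and none passed the threshold, where 1.98% of all genes did. An unadjusted limma p under 0.05 was found for 1, Sds, where 5.21% of all genes had one. Cdkn1a, a cell cycle inhibitor, had the largest log2 FC in AF against PF (4.57) on values of 4.74, 32.84 and 0.27 FPKM in AF, and passed only in AF with MNA against PF (log2 FC 3.20, limma adjusted p = 0.257).

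Genes with a known sex bias in mouse liver were listed because Hsd3b5 is one of them. Of 9 tested male-biased genes, 6 were downregulated in AF by the threshold of the methods and 3 of these with adjusted p under 0.05, where 2.35% of all genes were downregulated by the threshold and 0.326% passed the adjustment in either direction. All 9 had lower means, where 46.3% of all genes had higher ones. Elovl3, a fatty acid elongase, had 51.74, 42.49 and 27.97 FPKM in PF and 2.33, 3.99 and 2.46 in AF (log2 FC -3.80, limma adjusted p = 0.00730). Cyp4a12b (log2 FC -3.56) and Mup3, a major urinary protein (-2.65), were the other 2, with adjusted p of 0.0283 and 0.0211. Serpina1e, a protease inhibitor, and Cyp4a12a passed the threshold of the methods alone with log2 FCs of -3.16 and -3.13. Of 15 female-biased genes 7 were tested. Among these 7, 5 were upregulated by the threshold of the methods, where 1.95% of all genes were. Of the 5, 2 had an adjusted p under 0.05, where 0.326% of all genes passed the adjustment. The untested genes did not reach the filter. Among them, Cyp3a16 was at 0 in all libraries, and Prom1 had 0.16 to 0.23 FPKM in PF and 0.48 to 0.76 in AF. Cyp2b13 was at 0.01 FPKM or 0 in PF and at 4.77, 5.48 and 7.36 in AF (adjusted p = 0.00263), and Cyp2a4, a steroid hydroxylase, went from 1.34, 1.22 and 1.66 to 41.73, 18.88 and 22.36 FPKM (log2 FC 4.30, limma adjusted p = 0.00818). Cyp2b9 and Cux2 passed the threshold of the methods alone. Cyp2b9 was at 0.01 to 0.15 FPKM in PF and at 3.33 to 30.72 in AF, and Cux2 was at 0.19 FPKM or less in PF. Cyp2b13, Cyp2b9 and Cux2 reached the filter only through AF, and female-biased genes low in both groups did not reach it. The counts of this list are therefore a description and no test. At such PF levels rounded to 2 decimals, the fold changes of Cyp2b13, Cyp2b9 and Cux2 are imprecise and are not given. The Cyp2a, Cyp2b, Cyp4a12, Serpina1 and Mup genes have near-identical copies, so that the split of reads among these is uncertain.

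The 3 MNA libraries differed among themselves in the same genes. Summed FPKM of the 9 male-biased genes with an entry was 688 in replicate 1, 1769 in replicate 2 and 2059 in replicate 3, against 730 to 1563 in AF and 4792 to 8154 in PF. The 15 female-biased genes summed to 123, 48.96 and 57.72 FPKM in the MNA libraries, against 34.94 to 73.71 in AF and 3.23 to 10.25 in PF. Thus the library with the lowest Hsd3b5 had the lowest male-biased and the highest female-biased sum, and it was also one of the 2 libraries with high intron transcript FPKM, whose part was not tested. In AF with MNA against AF, Elovl3 (log2 FC 1.98) and Acot3 (1.17), both with a limma adjusted p of 0.940, were the only genes of both lists past the threshold of the methods, where 1.98% of all genes passed. Acot3, a peroxisomal thioesterase, was also upregulated in AF with MNA against PF (log2 FC 2.38, limma adjusted p = 0.135).

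**Figure D3:**
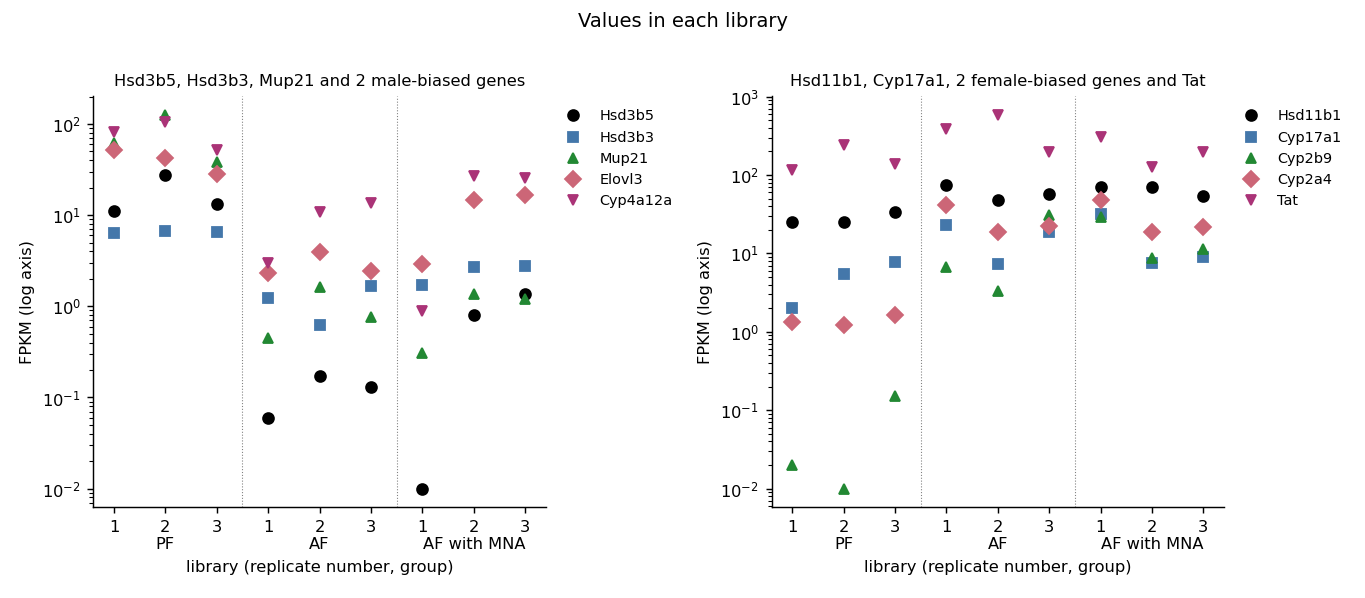
FPKM in each library on log axes, left for Hsd3b5, Hsd3b3, Mup21, Elovl3 and Cyp4a12a, right for Hsd11b1, Cyp17a1, Cyp2b9, Cyp2a4 and Tat; each symbol is 1 library. AF with MNA replicate 1 had 0.01 FPKM of Hsd3b5 and 0.88 of Cyp4a12a, the lowest of the 9 libraries for both, and the highest Cyp17a1 (31.85) and Cyp2a4 (48.17).

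The genes most like Hsd3b5 were ranked by Pearson's r of log2(FPKM + 1) over the 9 libraries among 12256 entries, as a description that the difference between the groups dominates. They were Mup21 (r = 0.981), RP23-309H21.1 (0.976), Aox3 (0.971), Mcm10 (0.970) and Olig1 (0.970). Mup21, a major urinary protein, had 61.82, 125.27 and 37.91 FPKM in PF. The AF libraries had 0.45, 1.64 and 0.76 FPKM, and those with MNA 0.31, 1.38 and 1.20. Aox3, an aldehyde oxidase of liver, had 53.76 to 65.80 FPKM in PF and 21.33 to 28.68 in the other 6 libraries. Among the enzymes, Hsd3b3 was the most alike (r = 0.936, rank 29), followed by Akr1c6 (0.711), Hsd3b7 (0.666) and Hsd17b2 (0.617). Hsd11b1 (-0.919) and Cyp17a1 (-0.714) ran against Hsd3b5, and Akr1d1 (0.150) was nearly unrelated.

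Hsd3b7 and Akr1d1 also belong to bile acid synthesis, and 8 of 11 other genes of that pathway were tested. Cyp7a1, the rate-limiting enzyme, had 24.53, 65.85 and 25.96 FPKM in PF and 10.09, 1.13 and 4.94 in AF (log2 FC -2.85, limma adjusted p = 0.199). Scp2, a sterol carrier and thiolase, was downregulated (log2 FC -1.18, adjusted p = 0.0798) and Cyp39a1, an oxysterol hydroxylase, was upregulated (1.65, adjusted p = 0.0828), each by the threshold of the methods alone. With Cyp7a1 these were 3 of 8, where 4.29% of all genes passed. None of the 8 passed in AF with MNA against AF, where 1.98% of all genes did, and none had an unadjusted limma p under 0.05 there. The log2 FC of Hsd3b7 (-0.40) and of Akr1d1 (-0.34) lay between these values and did not pass.

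**Figure D4:**
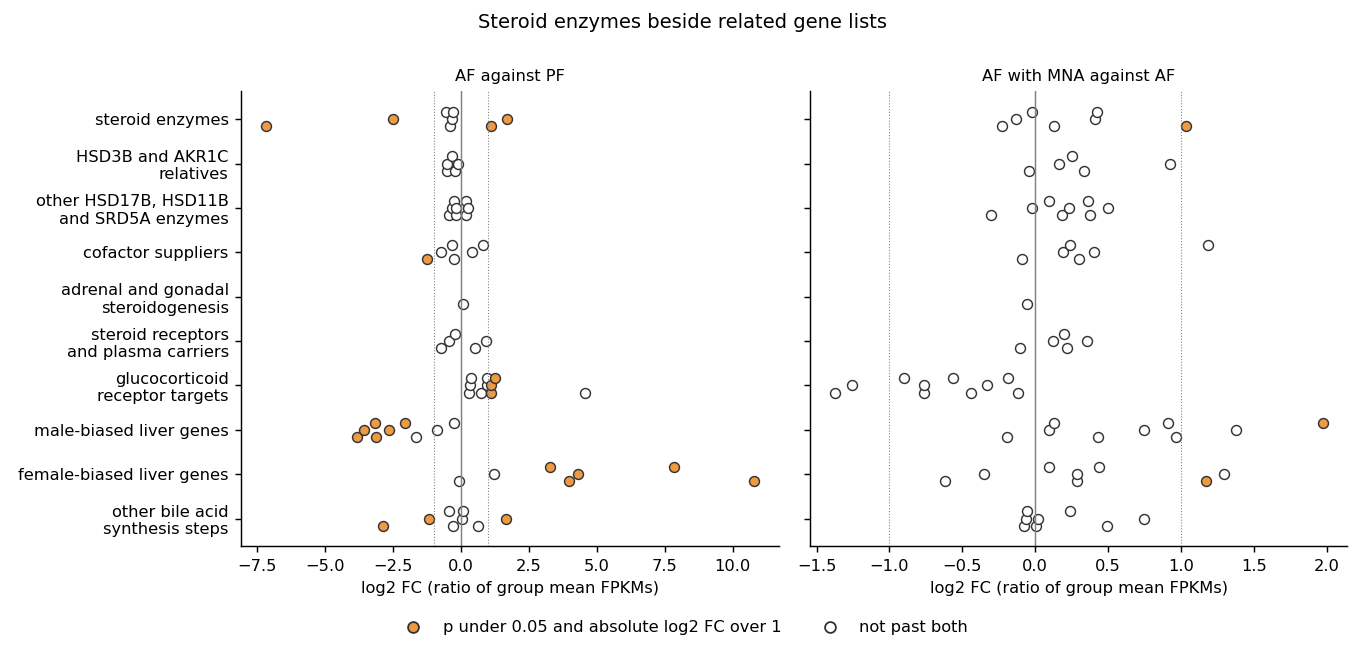
Log2 FC (ratio of group mean FPKMs) of the tested steroid enzymes and of 9 related lists in AF against PF and in AF with MNA against AF, on different horizontal scales; each point is a gene, dotted lines mark a log2 FC of -1 and 1, and filled points passed the threshold of the methods. Of 9 tested male-biased genes 6 were filled on the lower side in AF against PF. Of 7 tested female-biased genes 5 were filled on the upper side there, some of which reached the filter only through AF. No glucocorticoid receptor target was above 0 in AF with MNA against AF, which shares the AF libraries.

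The lncRNA table held 7 transcripts that overlapped the enzymes, and none passed the threshold of the methods in AF against PF or in AF with MNA against AF by limma, where 2.47% of 18310 and 1.75% of 19752 transcripts passed. The 5 tested in each comparison had unadjusted p from 0.269 upward in the first and from 0.280 upward in the second. Gm45775, antisense to Hsd17b2, was the most abundant, at 2.26 to 3.06 FPKM in PF and 1.88 to 2.15 in AF, and at 1.62 to 3.19 FPKM with MNA. The antisense 9430064I24Rik at Hsd3b7 had 0.702 to 0.986 FPKM in PF and 0.641 to 1.46 in AF. In the circRNA table, Hsd17b2 had 1 exonic circRNA (chr8:117734494-117742517) with 1 junction read in PF replicate 1 and 2 in AF with MNA replicate 3, and Akr1c6 had 1 intronic circRNA with 1 read in PF replicate 1. At these counts no difference was detectable.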

How the data were processed

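Total RNA of mouse liver was sequenced in 9 libraries depleted of ribosomal RNA, and groups and replicate numbers were taken from the sample titles. Gene and lncRNA levels were deposited as FPKM, computed by the authors with StringTie (the submitters' processing notes name StringTie 1.3.4, cutadapt 1.9, HISAT2, TopHat, FastQC and edgeR, without their roles). The deposited lncRNA table also gave read coverage per transcript and coding scores, a CPC score and a CNCI score, which were not used for any result. The deposited circRNA table gave junction read counts and a signal scaled by library depth, and the ratio of both gave the total reads. The genome build is not given in the sources used here. Coordinates of the members are those of GENCODE M21 (GRCm38), matched by transcript identifier.

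Named entries holding an annotated transcript were kept when their mean reached 0.5 FPKM in the 6 libraries of a comparison (lncRNAs, 0.1 FPKM) and fitted as log2(FPKM + 1) with limma 3.58.1 in R 4.3.3 (lmFit, eBayes with trend), with Benjamini-Hochberg adjustment over all genes tested. The log2 FC was that of the group mean FPKMs, and the threshold of the methods was unadjusted p < 0.05 with an absolute log2 FC above 1. Ballgown, which the methods name for lncRNAs, was not used here. The fit was tested on simulated data. Levels of single genes were compared by exact two-sided permutation tests. Alternatives were another pseudocount (0.1), other filters, scaling to the same median, a fit of all 9 libraries, the replicate block, no intensity trend, the coefficient as fold change, a library-size covariate and leaving out each library.

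The members, the lists and the motifs were chosen with earlier results of these data known. All 10 members were named. Of each list, the genes past the threshold of the methods in any comparison were named, at most 5 with the largest absolute log2 FC in AF against PF, and in lists without one the 2 genes with the highest mean FPKM. Hsd3b4, Hsd3b6, Cyp11a1, Esr1, Acot3, Cyp3a16, Prom1, Por, Marco and the other named cell type markers were named after their values were seen. A gene that the rule names is not reported here. Likeness was Pearson's r with Hsd3b5. Identity between transcripts and promoters came from pairwise alignment.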

Additional observations from a re-analysis of the deposited data

Results flagged for a closer look

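A second Hsd11b1 row, an assembled single-exon transcript on the strand opposite to the gene, was outside the gene comparisons, though the lncRNA table held the transcript and its test against AF did not pass, and was listed at 1.43 FPKM in AF with MNA replicate 1 and at 0 in the other 8 libraries, PF included. The 2-exon circRNA of Hsd17b2, which was not tested, had 2 junction reads in AF with MNA replicate 3 against 1 in the highest PF library, a difference of 1 read.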

How the results depend on the processing

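In AF against PF the number of enzymes past the threshold of the methods (4) ranged from 2 to 4 when 1 library was left out, with 2 without AF replicate 1. It was 3 with a library-size covariate, where Cyp17a1 did not pass. The number with adjusted p under 0.05 (2) was 1 with a pseudocount of 0.1, with no filter and with the replicate block (Hsd3b5 alone), 0 with a library-size covariate, where no gene of 12273 passed, and 1 to 2 without single libraries. In AF with MNA against AF the number past the threshold (1) was 0 with a filter of 2 FPKM, which removed Hsd3b3, with the coefficient as fold change and with the covariate, 0 to 2 without single libraries, and 2 without AF replicate 3 and AF with MNA replicate 1 together, an alternative chosen after seeing the data. Both counts of 2 include Hsd3b5, which reaches the filter only without AF with MNA replicate 1. In AF with MNA against PF the number past the threshold (3) was 4 with the covariate and without AF with MNA replicate 2, where Cyp17a1 passed, and 3 under the other alternatives. There the number with adjusted p under 0.05 (2) was 0 with a pseudocount of 0.1, no filter, scaling to the same median, the replicate block and the covariate, 1 with all 9 libraries in the fit, and 0 to 1 without single libraries. Apart from the filter, the cause of these changes was not tested.

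Signs turned for genes that passed no threshold in that comparison. In AF with MNA against AF, Cyp17a1 (-0.02) ranged from -0.99 to 0.32 without single libraries, with 0.31, 0.10, 0.32 and 0.27 where it was positive, Hsd11b1 was -0.0066 without AF replicate 2, and Akr1d1 ranged from -0.052 without AF with MNA replicate 1 to 0.74. In AF with MNA against PF, Akr1d1 was -0.019 as the coefficient and ranged from -0.39 without AF with MNA replicate 1 to 0.30. The replicate numbers did not pair the libraries, as the correlations of deviations between libraries with the same number were -0.079 to 0.063 and not every library correlated best with its own number. With the replicate block the counts past the threshold of the methods stayed at 4, 1 and 3, and all-gene counts with adjusted p under 0.05 went from 40 to 18, from 6 to 1 and from 52 to 0. Over all genes, the count past the threshold in AF against PF went from 527 to 1183 with no filter, 265 with a filter of 2 FPKM, 249 with the coefficient and 336 with the covariate, and the adjusted count from 40 to 24 with no filter, 86 with all 9 libraries and 0 with the covariate. The same settings took AF with MNA against AF from 242 to 676, 81, 99 and 105, and AF with MNA against PF from 477 to 1105, 228, 229 and 250. Without AF replicate 3 the first 2 comparisons had 764 and 367, and the second had 470 without AF with MNA replicate 1 as well. The log2 FCs of Hsd3b5 and Hsd3b3 against PF kept their direction and passed the threshold of the methods under every alternative run. No lncRNA overlapping an enzyme passed under any of them, and scaling lncRNAs to the same median could not be run because a library's median was 0. The FPKM tables carry no counts, so that values as low as those of Hsd3b5 in AF have no counting error of their own.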
